A study of Mus musculus with 7 samples.

Results

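The genes described here encode 2 neighbouring inflammatory chemokines, CCL2 and CCL7, and 5 related or partner genes: the cluster neighbours Ccl11 and Ccl12, the receptor gene Ccr2, and the ligand and receptor pair Cxcl12 and Cxcr4. They are 7 of the 23284 gene symbols counted in each library. The set was chosen by measured values, because the count of Ccl2 in these same libraries was far lower in Hand2 null than in wild-type tissue. The differences of these genes are therefore given as a description, without p-values; whether the model over all genes called them is stated only beside the share of all genes it called, and supports nothing.

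RNA was sequenced from the atrioventricular canal, the segment between the atrium and the ventricle of the embryonic heart where valve cushions form, of outbred NMRI mice. The null group was Hand2 d/d, in which germline Cre recombination had removed all coding sequence of the transcription factor gene Hand2, so every tissue of the embryo lacked it. The control group was wild type. The stage label of the embryos is e9.0-e9.25, whereas the sample titles read e9.5. Each library was made from 4 pooled canals, which makes the pool the replicate, with 4 null pools (replicates 1 to 4) and 3 wild-type pools (replicates 2 to 4). Pools were balanced for somite stage and sex ratio.

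Chemokines are small secreted proteins that attract cells carrying matching G protein-coupled receptors. CCL2 and CCL7 act mainly through CCR2, best known on monocytes. CXCL12 signals through CXCR4, while the atypical receptor ACKR3 (gene symbol Cxcr7 in these files) binds and removes CXCL12. This axis is known for guiding migrating cells and for growth of the coronary and other vessels in the embryo.

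The genes of the Ccl2 cluster are related in sequence, so the closest 50 nt stretches, the length of 1 read, are shown for 2 pairs that include Ccl7, the scarcer of the genes with reads. They are coding sequence in the sense direction of GENCODE M21 transcripts (GRCm38), and capitals mark the bases that differ within a pair. Ccl2 and Ccl7 are closest at coding bases 142 to 191 of Ccl2 and 136 to 185 of Ccl7, counted from the first base of the start codon, where 10 of 50 bases differ.
Ccl2: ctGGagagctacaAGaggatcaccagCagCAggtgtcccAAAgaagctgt
Ccl7: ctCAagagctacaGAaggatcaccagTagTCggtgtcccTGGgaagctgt
Ccl7 and Ccl12 have a closer stretch, with 8 differing bases between coding bases 136 to 185 of Ccl7 and 139 to 188 of Ccl12.
Ccl7: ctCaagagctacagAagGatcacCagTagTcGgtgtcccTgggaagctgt
Ccl12: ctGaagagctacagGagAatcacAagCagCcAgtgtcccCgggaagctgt
Of the pairs not printed, Ccl11 and Ccl12 differed at 7 bases of their closest stretch, the fewest among these 4 genes, and Ccl2 and Ccl12 at 9.
No 50 nt window of the Ccl2, Ccl7, Ccl11, Ccl12, Cxcl12 or Cxcr4 transcript occurred in a transcript of another gene, over 764, 752, 1033, 488, 5578 and 1756 windows. For Ccr2, 129 of 5679 windows (2.27%) did. Reads of Ccl2 and Ccl7 could thus be told from each other by these letters.

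The libraries held 27905601 to 44860753 reads in genes, and a count of 3 reads, used as the floor of detection, corresponded to 0.0669 to 0.108 CPM (reads per 1000000 reads in genes). Hand2 had 7, 26, 10 and 14 reads in the null libraries against 2123, 1224 and 1194 in the wild-type libraries, as labelled. Null replicate 2 stood apart in having 14.2% of its counted reads outside genes, where the other 6 libraries had 7.31% to 9.998%. Wild-type replicate 4 had the highest share of haemoglobin reads, 2.18% against 0.554% to 1.43% elsewhere. This share rests on other globin genes, since Hba-a1, Hba-a2, Hbb-b1 and Hbb-b2 had 0 reads in every library. All 10 canal and heart muscle marker genes were detected in every library, the lowest being the canal gene Tbx2 with 140 to 441 reads. Nothing in the labels says that the pools came from separate litters, so the SDs and p-values below measure the spread between these pools. Libraries were amplified by PCR without molecular identifiers, and counting intervals cover counting error only.

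Ccl2, which encodes the monocyte attractant CCL2, had 625, 246 and 451 reads in wild-type replicates 2 to 4 and 7, 25, 5 and 11 reads in null replicates 1 to 4. In CPM these were 13.9, 8.51 and 16.2 in wild type and 0.188, 0.761, 0.174 and 0.283 in null libraries. All 4 null libraries lay above the floor but far below all 3 wild-type libraries, so the groups did not overlap. The mean was 12.9 ± 3.94 CPM (SD, n = 3) in wild type and 0.351 ± 0.277 CPM (SD, n = 4) in the null, a ratio of means of 36.6. Over the pooled reads, 1322 in wild type and 48 in null, the ratio was 37.3 (95% counting interval 27.99 to 50.9, exact). The edgeR log2 fold change (null minus wild type) was -5.21 (SE 0.42), and -5.86 without null replicate 2. In bulk tissue, fewer cells making a transcript and less of it per cell cannot be told apart.

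Ccl7, the adjacent gene for a ligand of the same receptor, was scarcer. It had 112, 48 and 138 reads in wild-type replicates 2 to 4 (2.50, 1.66 and 4.95 CPM) and 1, 7, 0 and 1 reads in null replicates 1 to 4. Only null replicate 2 was above the floor, at 0.213 CPM, and here too the groups did not overlap. The wild-type mean was 3.03 ± 1.71 CPM (SD, n = 3) and the null mean 0.0664 ± 0.0986 CPM (SD, n = 4). The pooled reads, 298 and 9, gave a ratio of 44.9 (95% counting interval 23.3 to 99.1, exact). The log2 fold change was -5.48 (SE 0.72), and -7.06 without null replicate 2, a value that rests on 2 reads in the other null libraries.

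**Figure D1:**
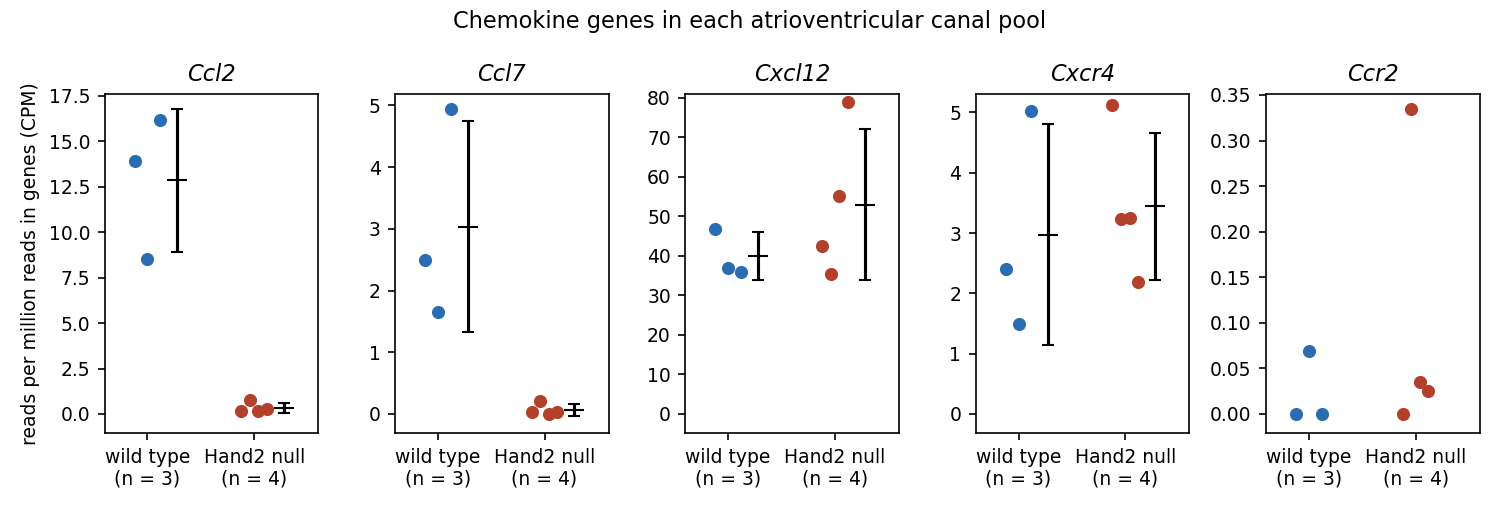
Level in CPM (vertical axes, each gene on its own scale from 0) of 5 chemokine genes in each of 3 wild-type (blue) and 4 Hand2 null (red) pools; bars show mean ± SD, left out for Ccr2, whose counts are near the floor. Ccl2 and Ccl7 separate the genotypes with no overlap, whereas the points of Cxcl12, Cxcr4 and Ccr2 overlap.

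Among the 14290 genes with enough reads to be tested, only the deleted gene itself had a lower log2 fold change (Hand2 -6.74) than Ccl7 and Ccl2, which ranked 2 and 3. The next gene below them in size, Gm5111, was at -3.33, followed by Epha3 at -2.97; both are named because they border the set, after their values were seen. Of the 7 chemokine genes, 4 passed the filter on low counts (at least 10 reads, scaled to library size, in at least 3 libraries). Ccl2 and Ccl7 passed it through their wild-type libraries, so they had to differ. By the edgeR call (quasi-likelihood test, Benjamini-Hochberg adjusted p under 0.05), 2 of the 4 were lower and 0 higher in the null, beside 2.13% of all tested genes lower, 4.11% higher and 6.24% in either direction. Every null library lay below every wild-type library for 2 of the 4, beside 10.3% of all tested genes. Since Ccl2 chose the set, nothing is read from these shares.

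**Figure D2:**
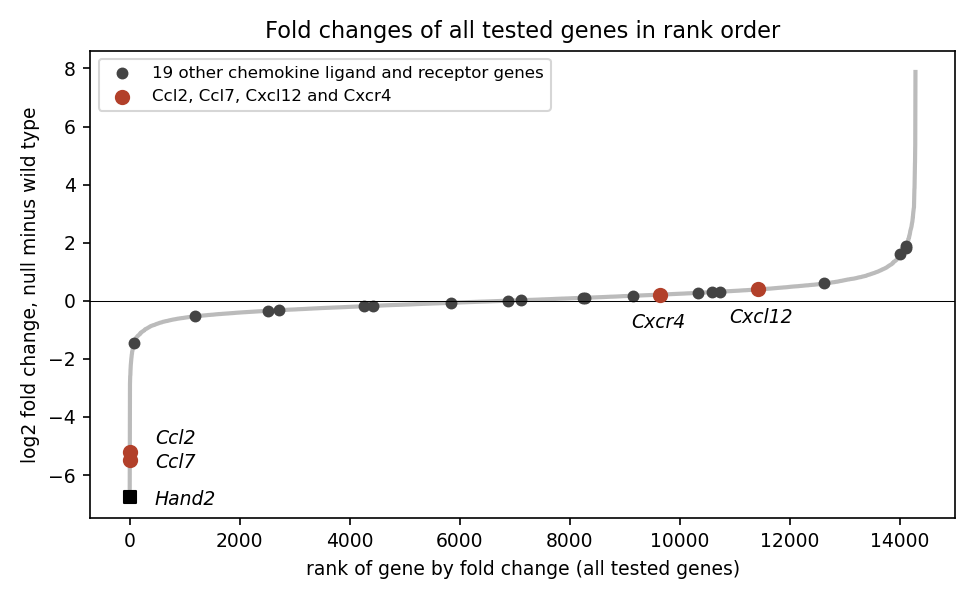
log2 fold change, null minus wild type (vertical axis), of all 14290 tested genes in rank order (horizontal axis, grey line), with Hand2 (square), Ccl2, Ccl7, Cxcl12 and Cxcr4 (red) and 19 other chemokine ligand and receptor genes (dark points). Ccl7 (-5.48) and Ccl2 (-5.21) lie next to Hand2 at the low end, and Cxcr4 (0.21) and Cxcl12 (0.39) lie in the flat middle.

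The share of Ccl2 within the pair was high in both genotypes. Ccl2 supplied 84.8%, 83.7% and 76.6% of the summed Ccl2 and Ccl7 reads in wild-type replicates 2 to 4. In null replicates 1 to 4 its share was 87.5%, 78.1%, 100% and 91.7%, each from at most 32 reads. Pooled over libraries the share was 81.6% (79.6% to 83.5%, exact binomial interval, 1620 reads) in wild type and 84.2% (72.1% to 92.5%, 57 reads) in the null. These intervals cover counting error only and not the spread between pools. Each wild-type library lay outside the wild-type interval, and null replicate 2 gave 32 of the 57 null reads. No comparison of the genotypes is drawn from the intervals. Across the 7 libraries, log2 CPM (prior count 2) of Ccl2 and Ccl7 had a Pearson r of 0.99, which the separation of the genotypes by itself makes high. After subtracting each group's mean, r was 0.94, where wild-type replicate 3 was lowest and replicate 4 highest for both genes, and null replicate 2 was highest among the null for both.

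The reads left in the null libraries were unevenly spread. As a percent of the wild-type mean CPM, Ccl2 stood at 1.46, 5.92, 1.36 and 2.20 in null replicates 1 to 4, Ccl7 at 0.883, 7.02, 0 and 0.846, and Hand2 itself at 0.425, 1.79, 0.790 and 0.814. Null replicate 2 was highest for all 3 genes, and it was also the library with the highest summed level of monocyte and macrophage markers, 46.0 CPM over 23 genes against 21.2 to 29.0 CPM in the other null and 26.6 to 28.8 CPM in the wild-type libraries. That library stood at the end of the range in other lists described below too. Its summed level was the highest of all libraries for the other CXC ligands (192.7 CPM), the inflammatory genes (761.0 CPM) and the genes of neighbouring tissues (76.6 CPM). For the signalling genes it was the lowest (5126 CPM). The part of monocytes and macrophages in the remaining Ccl2 and Ccl7 reads was not tested.

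**Figure D3:**
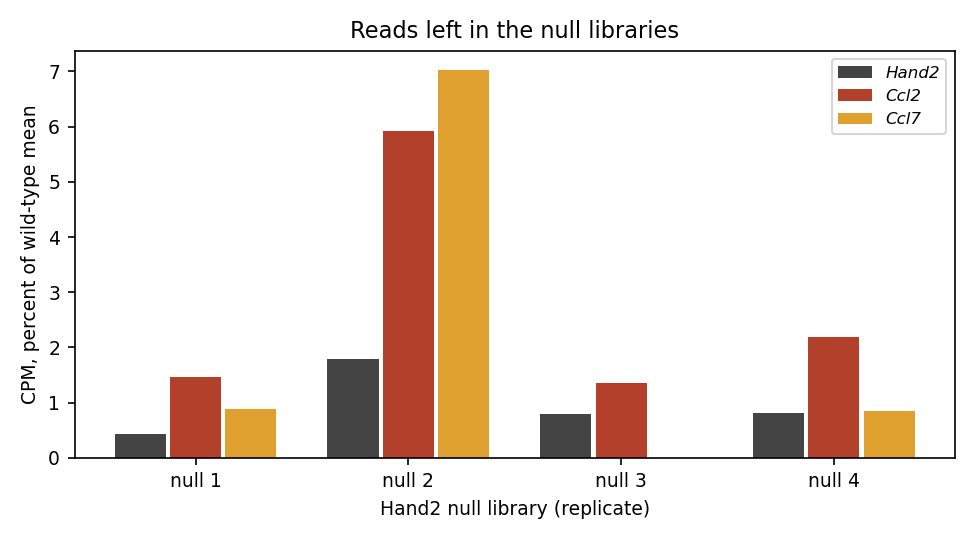
CPM left in each Hand2 null library (horizontal axis) as a percent of the wild-type mean (vertical axis, from 0) for Hand2 (grey), Ccl2 (red) and Ccl7 (yellow); bars are single libraries and carry no error. Null replicate 2 is highest for each gene, with 1.79%, 5.92% and 7.02%.

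Of the other chemokine genes of the cluster, only Ccl8 passed the floor of detection, and in a single library. Ccl11, whose product eotaxin attracts eosinophils, and Ccl12, a mouse CCR2 ligand close to CCL2, had 0 reads in all 7 libraries, which allows a level of up to 0.0669 to 0.108 CPM in a single library. In gene order along chromosome 11 the cluster reads Ccl2, Ccl7, Ccl11, Ccl12, Ccl8, Ccl1. Ccl8 had 5 reads, all in null replicate 2 (0.152 CPM, where the floor was 0.0913 CPM), and Ccl1 had none. In the wild-type libraries Ccl2 and Ccl7 were thus the only genes of the cluster with reads.

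The genes on both sides of the cluster are given to describe the region. Of 20 neighbours, 10 on each side in the RefSeq order, 12 were tested, and edgeR called 0 of them, beside 6.24% of all tested genes. An unadjusted p under 0.05 was reached by 0, and DESeq2 called 0. The 12 log2 fold changes ran from -0.23 to 0.67 with a median of 0.15, beside a median of 0.02 over all tested genes. The tested genes begin at place 5 before the cluster (Tmem98) and place 4 after it (Zfp830), both named for their place. The nearer genes had too few reads, so the stretch next to the cluster was not tested. The nearest gene before Ccl2, 5530401A14Rik, had no reads, and the nearest after Ccl1, Tmem132e, had too few reads to be tested, with 15, 11, 6 and 9 in the null and 0, 1 and 0 in wild type. For Tmem132e the pooled ratio of null to wild type was 30.3 (95% counting interval 5.13 to 1224, exact). In the fit with no filter on low counts it was higher in the null (log2 fold change 4.42, SE 1.16, edgeR adjusted p = 0.0374), the direction opposite to that of Ccl2 and Ccl7.

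**Figure D4:**
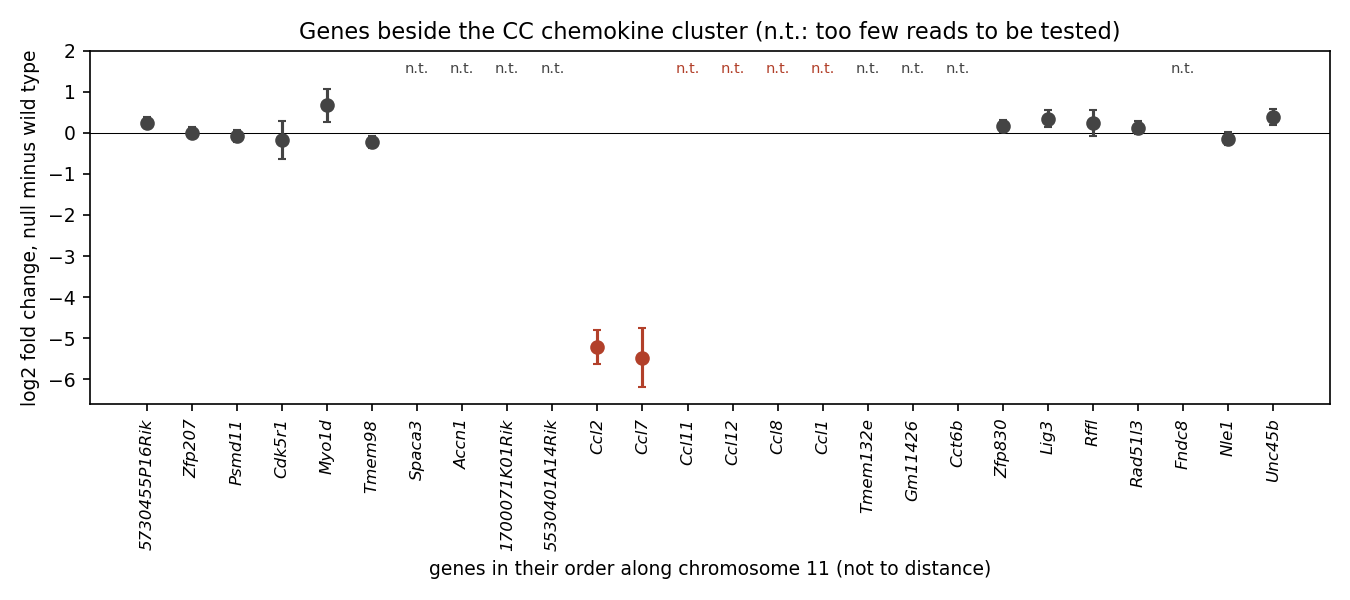
log2 fold change, null minus wild type, with SE (vertical axis) of the CC chemokine cluster (red) and 10 genes on each side (grey) in their order along chromosome 11 (horizontal axis, not to distance); n.t. marks genes with too few reads to be tested. Ccl2 and Ccl7 lie below -5, and the tested neighbours lie between -0.23 and 0.67.

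The signalling receptor genes for CCL2 and CCL7 were near or below the floor of detection. Ccr2 had 0, 11, 1 and 1 reads in null replicates 1 to 4 and 0, 2 and 0 in wild-type replicates 2 to 4, above the floor in null replicate 2 alone (0.335 CPM). It failed the filter and has no tested difference. A few other receptors that bind these ligands are shown for that role and lie outside the rule for named genes. Ccr1, which binds CCL7, had 13, 12, 0 and 0 reads in the null and 0, 0 and 6 in wild type. Ccr3 had 1 read, in null replicate 2. The atypical receptor Ackr2 (row Ccbp2), a scavenger of inflammatory CC chemokines, had 16, 21, 5 and 0 reads against 4, 8 and 2.

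The atypical receptor of red cells and venules, Ackr1 (row Darc), which also binds CCL2 and CCL7, was the most abundant of these at 81, 85, 39 and 64 reads in the null and 81, 55 and 24 in wild type. Its means were 1.94 ± 0.55 (SD, n = 4) and 1.52 ± 0.58 CPM (SD, n = 3), a difference of 0.32 on the log2 scale (SE 0.37) that edgeR did not call (adjusted p = 0.647). In the wild-type canal the ligand transcripts thus far outnumbered those of their signalling receptor: per kilobase of exon, Ccl2 stood at 11.3 ± 3.46 CPM and Ccr2 at 0.00341 CPM (mean of 3 libraries, 2 of them at 0 reads).

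Cxcl12, the ligand of the second axis, was the most abundant of the 7 in reads, with 1586, 1160, 1582 and 3071 in null replicates 1 to 4 and 2103, 1065 and 1003 in wild-type replicates 2 to 4. Its level was 42.5, 35.3, 55.2 and 78.9 CPM in the null (53.0 ± 19.1, SD, n = 4) and 46.9, 36.8 and 35.9 CPM in wild type (39.9 ± 6.07, SD, n = 3). The groups overlapped, with null replicate 4 highest and null replicate 2 lowest of all 7. The log2 fold change was 0.39 (SE 0.24), not called, and 0.14 without null replicate 4.

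Cxcr4, the receptor for CXCL12, had 191, 106, 93 and 85 reads in the null and 108, 43 and 140 in wild type. In CPM these were 5.12, 3.23, 3.24 and 2.18 in null libraries (3.44 ± 1.22, SD, n = 4) and 2.41, 1.49 and 5.02 in wild-type libraries (2.97 ± 1.83, SD, n = 3). The wild-type libraries alone spanned nearly the whole range. The log2 fold change of 0.21 (SE 0.41), not called, became -0.08 without null replicate 1, and -0.10 or 0.79 when wild-type replicate 3 or 4 was left out, so its direction was set by single libraries.

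Ackr3 (row Cxcr7), the second receptor of CXCL12, had 718, 397, 713 and 537 reads in the null and 805, 406 and 639 in wild type, or 17.5 ± 5.79 (SD, n = 4) and 18.3 ± 4.44 CPM (SD, n = 3). The difference was -0.07 on the log2 scale (SE 0.26), with an edgeR adjusted p = 0.907. The ratio of Cxcl12 to Cxcr4 per kilobase of exon was 1.84, 2.42, 3.76 and 7.99 in the null (4.00 ± 2.78, SD, n = 4) and 4.31, 5.48 and 1.58 in wild type (3.79 ± 2.00, SD, n = 3). These ratios spread more within each genotype than their means differed.

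CPM per kilobase of exon compares genes only as far as the exon lengths used hold. On this scale the order in wild type was Ccl2 (11.3 ± 3.46), Cxcl12 (4.88 ± 0.74), Ccl7 (3.79 ± 2.13), Cxcr4 (1.64 ± 1.01), then Ccr2, with n = 3 and SD in each case. Ccl2 was above Cxcl12 in every wild-type library, with no overlap of their ranges. The neighbours Cxcl12 and Ccl7 overlapped, as did Ccl7 and Cxcr4. In the null the order was Cxcl12 (6.48 ± 2.34), Cxcr4 (1.904 ± 0.675), Ccl2 (0.309 ± 0.244), Ccl7 (0.0829 ± 0.123) and Ccr2 (0.0146), with n = 4 and SD. With these lengths Ccl2 headed the wild-type order, whereas both CC ligands followed Cxcl12 and Cxcr4 in the null order. The lengths join all exons of a gene, 8176 nt for Cxcl12 and 1138 nt for Ccl2, and may differ from those of the counting annotation. In CPM, without lengths, Cxcl12 (39.9) was above Ccl2 (12.9) in wild type, so the place of Ccl2 in that order rests on the lengths.

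None of the remaining chemokine ligand and receptor genes was called by edgeR. They numbered 55, of which 8 had no read in any library and 19 could be tested. Of these 0 were called by edgeR, beside 6.24% of all tested genes, 3 had an unadjusted p under 0.05, and DESeq2 called 1. The 19 genes had a median log2 fold change of 0.10, beside 0.02 over all tested genes. With 19 genes, 0 calls is near the share of all genes, so no absence of change is read from it. The 1 gene called by DESeq2 was Ccl17, a T cell attractant named after its values were seen. It had 14, 8, 12 and 17 reads in the null and 44, 37 and 22 in wild type. Its log2 fold change was -1.47 (SE 0.43, edgeR adjusted p = 0.0649, DESeq2 adjusted p = 0.0394).

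Among the other CC ligands, 5 of 17 genes were tested, and their median log2 change was -0.19. The most abundant were Ccl25, a thymic and gut T cell attractant (0.01, SE 0.23), and Ccl27a (-0.19, SE 0.25). Among the CXC and CX3C ligands, 4 of 16 were tested, and by mean CPM over the 7 libraries the most abundant were the platelet chemokines Pf4 and Ppbp, although Ppbp (1.68 CPM) was below Cxcl16 (3.20 CPM) and Cx3cl1 (2.22 CPM) in wild type. Pf4 had 424, 5455, 1985 and 1028 reads in the null and 556, 655 and 530 in wild type (log2 fold change 1.87, SE 0.67, edgeR adjusted p = 0.111). Null replicate 1 lay below the wild-type libraries in reads, and without it Pf4 was called (2.20, edgeR adjusted p = 0.0488). Without null replicate 2, the library with the most Pf4 reads, the value was 0.99 (adjusted p = 0.304). The value for Ppbp was 1.84 (SE 0.94), with an edgeR adjusted p = 0.255, and it moved to 0.84 without null replicate 2, which held 509 of its reads, and to 3.04 without wild-type replicate 4.

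Among the other signalling receptors, 6 of 17 were tested, the most abundant being Cxcr2, a neutrophil receptor, at -0.54 (SE 0.22, edgeR adjusted p = 0.157; -0.18 without wild-type replicate 3), and Cxcr5, a B cell receptor, at -0.17 (SE 0.43). Of the 5 atypical receptors 4 were tested and 0 called, beside 6.24% of all tested genes. An unadjusted p under 0.05 was reached by 0, and DESeq2 called 0. Besides Cxcr7, the most abundant was Ccrl2 (0.10).

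**Figure D5:**
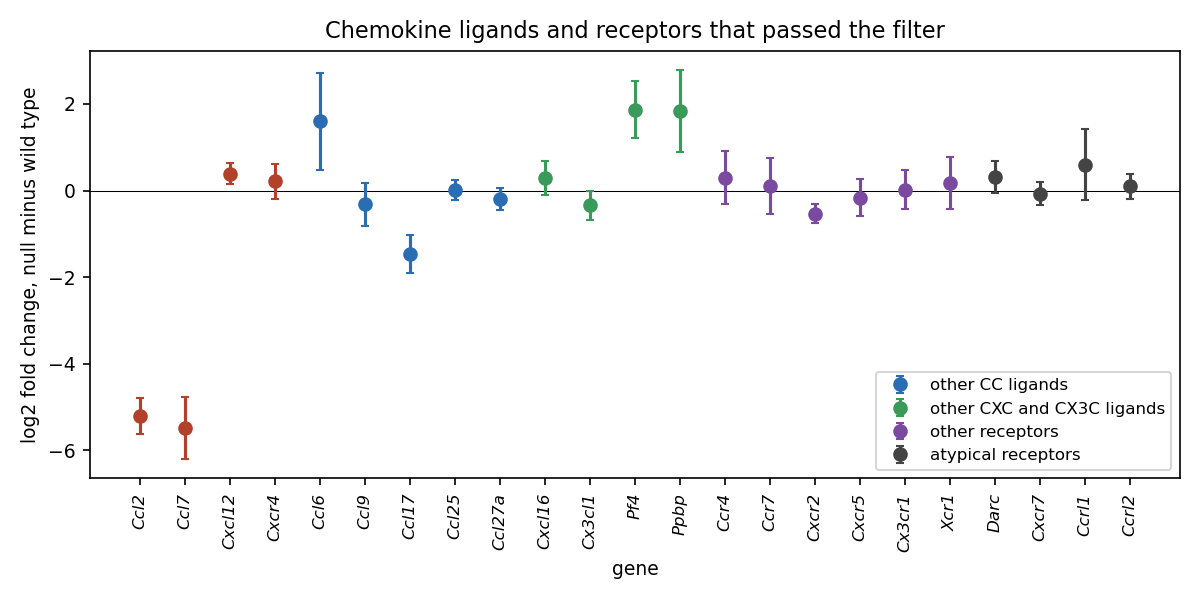
log2 fold change, null minus wild type, with SE (vertical axis) of the 23 chemokine ligand and receptor genes that passed the filter on low counts (horizontal axis), coloured by class, with Ccl2, Ccl7, Cxcl12 and Cxcr4 in red at the left. Ccl2 and Ccl7 lie below -5, and the lowest of the others is Ccl17 at -1.47.

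Genes that carry the signal inside a cell, such as G protein subunits, arrestins and kinases, were nearly all expressed. Of 37 genes 34 were tested, and edgeR called 1 higher and 0 lower, beside 4.11% and 2.13% of all tested genes. DESeq2 called 2 higher, and the median log2 change was 0.09. Ptk2b, a calcium-activated kinase of chemokine signalling, rose to 23.9 ± 2.33 CPM from a wild-type level of 13.9 ± 0.89 (log2 fold change 0.76, SE 0.14, edgeR adjusted p = 0.0107). The call was lost when wild-type replicate 2 (adjusted p = 0.0594) or 3 (0.0661) was left out.

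The list of inflammatory cytokine and NF-kB pathway genes was included because this pathway is known to induce Ccl2 and Ccl7. Of 34 genes 23 were tested, with 2 higher and 1 lower, beside 4.11% and 2.13% of all tested genes. The others were not called, and the median log2 change was 0.07. The 3 called genes encode no cytokine, and the cytokine genes Tnf, Il1b and Il6, named for their role, had too few reads to be tested. The cytokine genes Csf1 (0.22, edgeR adjusted p = 0.606) and Il33 (0.07, edgeR adjusted p = 0.9425), named for the same role, were tested and not called. Il1r1, the receptor for interleukin 1, had 94, 100, 73 and 109 reads in the null and 337, 237 and 228 in wild type. Its level fell from 7.96 ± 0.39 (SD, n = 3) to 2.73 ± 0.25 CPM (SD, n = 4), a log2 difference of -1.57 (SE 0.20) with an edgeR adjusted p = 0.000894, and it was called in every alternative fit. All 4 null libraries lay below all 3 wild-type libraries.

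The NF-kB inhibitor gene Tnfaip3 and the adhesion gene Icam1, both known targets of the pathway, were higher in the null. Tnfaip3 averaged 6.31 ± 0.51 CPM in wild type and 12.96 ± 1.83 in the null (log2 fold change 1.02, SE 0.18, edgeR adjusted p = 0.00674), and the call was lost without wild-type replicate 2 (adjusted p = 0.0585). Icam1 averaged 1.46 ± 0.81 CPM in wild type and 5.10 ± 0.40 in the null (log2 fold change 1.77, SE 0.38, edgeR adjusted p = 0.0181), a call lost when null replicate 1 (0.0524) or wild-type replicate 2 (0.0661) was left out.

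Markers of other cell types in the dissected pieces are given because Ccl2 and Ccl7 were measured in whole tissue; their part in the difference was not tested. Of the 24 monocyte and macrophage markers 23 had a gene row and 12 were tested. Of these 1 was higher (Mrc1, 1.86) and 1 lower (Lyz2, -0.86), beside 4.11% and 2.13% of all tested genes. The median log2 change was 0.00. Mrc1 encodes the mannose receptor and Lyz2 a lysozyme. Without wild-type replicate 2 neither was called (Mrc1 adjusted p = 0.128, Lyz2 0.111), and Mrc1 was also lost when either of null replicates 1 (0.0915) and 4 (0.0659) or of wild-type replicates 3 (0.0685) and 4 (0.0822) was left out, and Lyz2 when null replicate 2 (0.0533) or wild-type replicate 3 (0.0895) was, all by edgeR. Defining genes of these cells were scarce in both genotypes: Csf1r had 27 to 49 reads in the null and 22 to 42 in wild type, Ptprc 2 to 14 and 1 to 8, and the row Emr1 (Adgre1) was at 0 in 2 null and 2 wild-type libraries.

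Other cell lists held called genes too, beside 4.11% of all tested genes called higher and 2.13% called lower. Of the 10 endocardial genes 5 rose, among them Tie1 (log2 fold change 1.10), Esam (1.11), Kdr (0.94) and Pecam1 (0.74, edgeR adjusted p = 0.0107; 0.0509 without null replicate 1, 0.0873 and 0.0789 when wild-type replicate 2 or 3 was left out). Of the 11 mesenchymal genes 5 fell, among them Twist1 (-2.10), Postn (-2.04), Sox9 (-1.27) and Snai1 (-1.25). Without null replicate 1, 1 of the 11, Twist1, was called, and Snai1 was not called without wild-type replicate 2 or 4 either. Leaving out wild-type replicate 4 moved Postn to -1.19 and Sox9 to -0.80. To complete both lists, the remaining called gene was Cldn5 among the endocardial genes (2.11, edgeR adjusted p = 0.0134). Among the mesenchymal genes it was Msx1 (-1.46, edgeR adjusted p = 0.0477). The genes not called are named as well. Of the endocardial ones, Nfatc1 (-0.09) and Npr3 (-0.18) were lower, and Cdh5 (0.51), Emcn (0.34) and Tek (0.08) higher. Of the mesenchymal ones, Pdgfra (0.44), Vcan (0.18) and Snai2 (0.17) were higher, and Has2 (-0.75), Prrx2 (-0.37) and Prrx1 (-0.07) lower. The summed level of the mesenchymal list overlapped between genotypes, at 470.5 to 665.4 CPM in the null and 591.3 to 769.3 CPM in wild type, whereas that of the endocardial list did not, at 476.5 to 537.8 and 317.4 to 365.8 CPM.

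The blood list (10 of 15 genes tested) had 1 lower gene, Klf1 (-1.16), beside 2.13% of all tested genes. Summed levels of the list were 5623 to 14580 CPM in the null and 9358 to 22090 CPM in wild type. Klf1 was no longer called when null replicate 1 or 2 or any of the wild-type replicates was left out. Of the heart muscle list 1 of 10 genes was higher, Myh7 (0.80), beside 4.11% of all tested genes. Myh7 was not called when wild-type replicate 2 or 3 was left out. Of 17 genes of neighbouring tissues 12 were tested and edgeR called 0, beside 6.24% of all tested genes. An unadjusted p under 0.05 was reached by 2, and DESeq2 called 1. By mean CPM over the 7 libraries the most abundant were the epicardial genes Wt1 and Tbx18. In wild type, however, Tcf21 (13.8 CPM) was above Tbx18 (12.7 CPM). The summed level of this list did not overlap between genotypes, at 70.9 to 76.6 CPM in the null and 46.9 to 69.6 CPM in wild type.

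The genes most like each chemokine gene across the 7 libraries were sought among 11384 tested genes of at least 1 CPM, as a description of patterns that share libraries and depth. For Ccl2 they were Naa20 (r = 0.996), Ccl7 (0.993), Vamp8 (0.992), Hand2 (0.990) and Ociad2 (0.990). Their changes differed in size: Naa20 and Vamp8 both had a log2 fold change of -0.43 (edgeR adjusted p = 0.0520 and 0.0546), and Ociad2 fell by 0.58 (adjusted p = 0.0280, lost when null replicate 1 or any of the wild-type replicates was left out). For Cxcl12 they were Tmem180 (0.969), Hkdc1 (0.967), the actin-bundling gene Fscn1 (0.963), Tmem184b (0.946) and Katnal1 (0.941). For Cxcr4 they were Zbtb7c (0.953), Guca1b (0.952), Arap2 (0.946), the transcription factor gene Sp8 (0.936) and Amz2 (0.928). Cxcl12 and Cxcr4 had no gene in common in these lists, and their own r was -0.24. The r of Ccl2 with Cxcl12 was -0.51.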

How the data were processed

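RNA was measured in 7 libraries, grouped by the genotype label. The deposited files hold raw read counts per gene symbol, 1 file per library. The submitters' processing notes name the mouse build mm9 and the tools SAMtools, HTSeq and TopHat2 2.0.13. Per the labels' protocols rRNA was depleted, 30 to 60 ng of RNA (integrity number at least 8.5) was amplified for 8 cycles and single 50 nt reads were unstranded. Antisense reads therefore cannot be told apart. The annotation and the counting settings were not given in the sources used here. Another wild-type pool, of lower RNA quality, was left unsequenced per the labels.

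The 5 summary lines of each file were left out. Among them were reads in no gene (7.31% to 14.2%), reads ambiguous between genes (1.46% to 1.69%) and reads without a unique alignment. The share without a unique alignment was 9.08% to 11.6% in the null and 12.2% to 13.8% in wild type, without overlap. The part of this difference in the results was not tested. Null was compared with wild type with the edgeR 4.0.16 quasi-likelihood test (limma 3.58.1, R 4.3.3), TMM factors and filterByExpr with a minimum count of 10; calls were made at an adjusted p under 0.05 (Benjamini-Hochberg over 14290 genes). CPM are over reads in genes, errors after ± are SDs, and intervals are exact at 95%. The SE of an edgeR log2 fold change was derived back from the quasi-likelihood test. It is the absolute log2 fold change over the square root of the test statistic F, and so holds no information beyond that test. Alternatives were DESeq2 1.42.0, other scalings and filters, leaving out libraries and a replicate block. The script was tested on simulated counts. Only genes with more reads than Ccl7 had on average were changed there, and by smaller folds than those of Ccl2 and Ccl7. That test therefore does not cover such scarce genes. The genes and the 12 lists were chosen with earlier results of these data known. Named were Hand2, the 7 genes, up to 4 called genes of a list by p (or the 2 most abundant), called or nearest neighbours, and the 5 genes of highest r; others are marked. Exon lengths and 50 nt windows came from GENCODE M21 (GRCm38), gene order from RefSeq. Replicate numbers are shared between the groups, but nothing in the labels pairs them.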

Additional observations from a re-analysis of the deposited data

Results flagged for a closer look

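In 46 groups of 4 null libraries, each for 1 named gene, the highest or lowest library was set against the others by Dixon's test, which chance passes in about 1 of 20 groups. It marked 4 genes, each time with null replicate 2 highest. Ccl7 was at 0.213 CPM (7 reads) there and at 0 to 0.0268 CPM in the other null libraries. Ccr2 was at 0.335 CPM (11 reads) against 0 to 0.0349 CPM. The kinase gene Ptk2b was at 27.4 CPM against 22.4 to 23.0 CPM, and the endothelial receptor gene Kdr at 112.5 CPM against 82.0 to 86.3 CPM. The same library had the largest share of reads outside genes (14.2%); its part in these values was not tested.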

How the results depend on the processing

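Ccl2 and Ccl7 were lower in the null in all 15 alternative fits, Ccl2 between -5.86 and -5.03 and Ccl7 between -7.06 and -4.96, both ranges set by leaving out single libraries; Ccl7 was at -6.54 with both null replicate 2 and wild-type replicate 4 left out, an alternative added after seeing the data. Cxcl12 ran from 0.14 to 0.56 and Cxcr4 from -0.10 to 0.85. Over all genes DESeq2 called 1761 (993 higher, 768 lower) and edgeR 374 without null replicate 1 (replicates 2 to 4 of both groups), 421 without both libraries named above, and 256 to 1598 without 1 library, lowest without wild-type replicate 2 and highest without null replicate 3, against 892. DESeq2 called 1 other CC ligand, 2 signalling genes, 3 blood genes and 1 gene of neighbouring tissue. With replicates 2 to 4 alone 1 CXC ligand, 1 macrophage gene and 1 mesenchymal gene were called. Without both libraries 0 signalling, 0 macrophage, 0 blood and 0 heart muscle genes, 1 mesenchymal gene and 1 gene of neighbouring tissue were called. Leaving out 1 library gave 0 to 1 CXC ligands, 0 to 1 receptors, 0 to 2 signalling genes, 1 to 4 inflammatory genes, 0 to 2 macrophage genes, 0 to 2 blood genes, 0 to 2 heart muscle genes and 1 to 5 mesenchymal genes. Without a filter 1 chromosome neighbour (Tmem132e) was called. Some of these fits hold fewer libraries or other genes. The number called rose in some fits and fell in others, and the reasons were not tested. No direction of a called value reversed.

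Same-numbered libraries deviated together with correlations of -0.073, 0.257 and 0.166, and differently numbered ones with -0.234 to 0.137. The numbers were not taken as pairs because nothing in the labels pairs them. Whether they mark pairs was not tested. With the replicate block 1339 genes were called (761 higher, 578 lower), against 374 in the same libraries without it. Among the 1339 were 1 CXC ligand, 1 receptor (Cxcr2, -0.56), 2 signalling genes, 1 macrophage gene and 2 blood genes. With the block Ccl2 was at -5.12 and Ccl7 at -5.34.

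Depth limits several values: the null Ccl7 and all Ccr2 values rest on at most 11 reads in a library, and Ccl11 and Ccl12 could not be detected.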

Other observations

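Chemokine genes with too few reads for the main filter held values that belong to no comparison above; they were chosen after their values were seen. Cxcr6, a receptor of T cells and natural killer cells, had 7, 12, 14 and 10 reads in null replicates 1 to 4 and 0, 0 and 2 in wild-type replicates 2 to 4. In the edgeR fit with no filter its log2 fold change was 3.72 (SE 1.12, adjusted p = 0.0687). Cxcl17, a mucosal chemokine, had 2, 17, 9 and 4 reads in the null and 0 in each wild-type library (adjusted p = 0.0501 in that fit). Both were thus found almost entirely in null libraries, the direction opposite to that of Ccl2.

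Several other low genes were concentrated in 1 or 2 null libraries. Cxcl5 had 56 reads in null replicate 2 against 1, 8 and 4 in the other null and 5, 0 and 11 in the wild-type libraries. Cxcl14 had 57 reads in null replicate 2 against 1, 9 and 7, and 7, 2 and 3. The macrophage inflammatory proteins Ccl3 and Ccl4 were found together, with 16 and 11 reads in null replicate 2, 14 and 17 in null replicate 4, and 2 and 1 in wild-type replicate 4, and none in the other 4 libraries.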
